A study of Rattus norvegicus with 40 samples.

Results

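The endocrine lineage transcription factors described here are 6 genes, Neurog3, Neurod1, Isl1, Pax6, Pax4 and Insm1, taken from the arrays as every probe set (a group of short oligonucleotides against a transcript) annotated with one of these symbols. Of the 6 genes, 5 had a probe set and are described below, with 6 probe sets in all among 31099. Isl1 had 2 of them and the others 1 each, and Insm1, a zinc-finger repressor of the same cascade, is not analysed here. The 5 genes were chosen by name and not by their values. They belong to 14217 genes measured in whole intestine and whole lung of Wistar rat embryos on 40 arrays.

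The 4 groups were intestine on gestational day 16 (E16), intestine on day 20 (E20), lung at E16 and lung at E20, with 10 arrays each, all from embryos delivered by caesarean section, and no treatment is named. By its title, the study asked how both organs prepare for birth. RNA of intestine was labelled from 1 µg and RNA of lung from 2 µg, so tissue and RNA amount cannot be told apart. Tissue of more than 1 sibling was frozen, and whether an array holds 1 embryo is not settled. If the arrays of an age are siblings, litter and age cannot be told apart, and p-values reflect the scatter of these arrays alone, which may be technical.

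Endocrine cells of the gut epithelium arise when a progenitor that escapes Notch signalling switches on Neurog3, a basic helix-loop-helix factor that is made only briefly. Neurog3 switches on a second helix-loop-helix factor, Neurod1, and with it the homeodomain factors Pax4, Pax6 and Isl1, which steer cells towards particular hormones. The same cascade builds the islets of the pancreas. Neuroendocrine cells of the airway are the hormone-storing cells of the lung epithelium, and Isl1 is also a factor of developing neurons and of the heart.

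Helix-loop-helix factors bind E-boxes, of the form CANNTG. The 250 bases before the RefSeq start site of 3 members are shown because each was higher at E20 than at E16 in intestine. Capitals mark CAGATG and CAGCTG, searched on both strands (CAGATG reads CATCTG on the other strand, and CAGCTG reads the same on both). The stretches are from build GRCr8: chr20:30622283-30622532, plus strand, for Neurog3, chr3:84770455-84770704, minus strand, for Neurod1, and chr3:112590346-112590595, plus strand, for Pax6.
Neurog3: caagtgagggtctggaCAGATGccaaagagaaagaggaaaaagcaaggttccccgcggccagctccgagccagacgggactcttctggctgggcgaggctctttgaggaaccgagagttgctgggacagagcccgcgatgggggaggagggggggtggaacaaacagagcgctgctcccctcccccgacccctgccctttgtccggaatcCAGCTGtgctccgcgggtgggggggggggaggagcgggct
Neurod1: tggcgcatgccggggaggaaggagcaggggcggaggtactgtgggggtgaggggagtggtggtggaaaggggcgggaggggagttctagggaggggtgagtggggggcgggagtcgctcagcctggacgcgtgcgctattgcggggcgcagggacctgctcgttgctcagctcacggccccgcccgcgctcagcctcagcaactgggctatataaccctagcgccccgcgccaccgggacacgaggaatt
Pax6: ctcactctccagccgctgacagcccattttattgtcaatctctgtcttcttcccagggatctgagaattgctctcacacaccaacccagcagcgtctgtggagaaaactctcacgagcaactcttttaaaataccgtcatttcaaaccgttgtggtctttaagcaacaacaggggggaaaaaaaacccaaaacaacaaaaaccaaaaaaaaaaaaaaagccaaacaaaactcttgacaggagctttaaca
Neurog3 held 1 CAGATG, which begins 234 bases before the start site, and 1 CAGCTG, which begins 40 bases before it. Neither string occurred in the stretches of Neurod1, Pax6, Isl1 or Pax4. Other CANNTG forms were not searched and are left unmarked where present, such as caactg in the Neurod1 stretch. Of 33469 rat promoters of the same 250 bases, 14.0% held CAGATG, 12.0% held CAGCTG and 24.3% held at least 1 of them. These matches describe letters and not binding.

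In the intestine, 3 of the 5 factors were higher at E20 than at E16: Pax6 by 1.61-fold, Neurog3 by 1.54-fold and Neurod1 by 1.46-fold. Isl1 was lower by 1.21-fold, and the Pax4 difference was 0.013 log2 units. Of all genes, 29.5% were higher and 41.9% lower in this comparison. None of the 5 factors reached 2-fold. These folds are of intensities, and for Pax6 the E16 signal lay below the 10th percentile of its own array on 9 of 10 arrays, so its fold is not one of transcript amounts. In the lung, Neurog3 was lower at E20 by 1.34-fold and Pax4 by 1.19-fold, and 33.7% of all genes were lower. The change in Neurog3 thus ran in opposite directions in the organs, and that difference was past 2-fold. Its 2 lower groups lay near the floor. Neurog3 averaged 0.12 log2 units above its own array's 10th percentile in intestine E16 and 0.11 in lung E20. It lay below that percentile on 3 of 10 arrays in each. Values below are log2 of the deposited intensity, a change of 1 being 2-fold. A gene is written as higher or lower, or as having risen or fallen, where limma's Benjamini-Hochberg adjusted p over all 14217 genes was under 0.05, and as called where the difference also reached 2-fold.

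**Figure D1:**
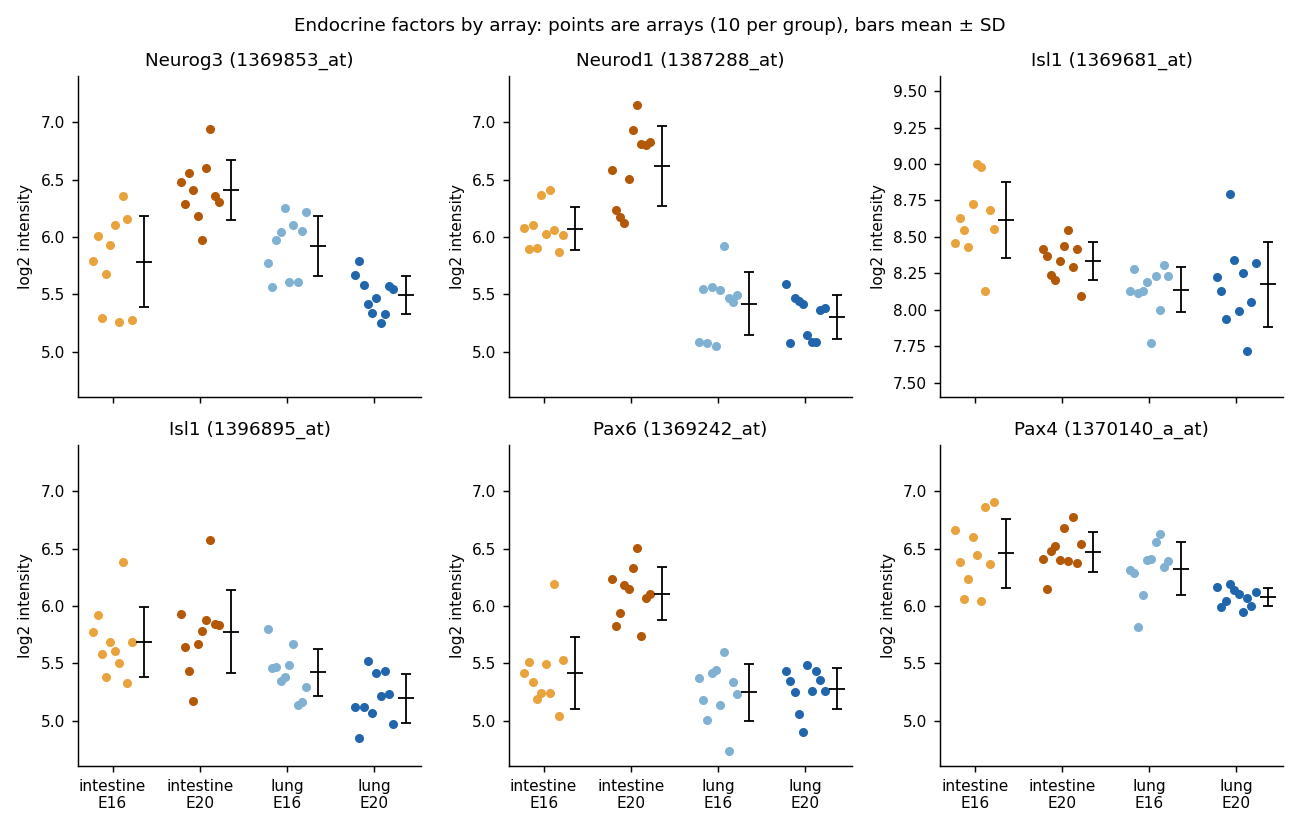
Each panel is 1 probe set, with log2 intensity on the vertical axis, 1 point for each array (10 in each group) and bars giving the mean and SD of the group; the bright Isl1 probe set has an axis of its own range. Neurog3, Neurod1 and Pax6 sit highest in intestine E20, at group means of 6.41, 6.62 and 6.11.

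Neurog3, which starts the endocrine programme, ran from 5.25 to 6.36 across the intestine E16 arrays, with a median of 5.86. The intestine E20 arrays ran from 5.98 to 6.94, with a median of 6.38. All 10 of them lay above the E16 median and 5 above every E16 array, so the groups overlapped. The means were 5.79 ± 0.40 and 6.41 ± 0.26 (SD, n = 10 arrays each), a rise of 0.62 (SE 0.12, limma adjusted p = 1.96e-05). In bulk tissue, a change in the number of cells of a type and a change in RNA per cell cannot be told apart.

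The 3 highest Neurog3 values of intestine E16 lay on the 3 arrays with most exocrine pancreas signal. Replicates 6, 8 and 9 had a mean log2 over 18 genes of exocrine pancreas of 7.34, 7.67 and 7.47, against 6.03 to 6.52 on the other 7. The summed intensity of these genes ran from 1576 to 8582 at E16 and from 2902 to 3989 at E20, and none was at 0. The same 3 arrays held the highest Neurog3 values of the group, 6.10, 6.36 and 6.16, and the other 7 ran from 5.25 to 6.01. Replicate 8 also had a raised dim end, with a 10th percentile of 6.32 against at most 5.77 on the others, and its Neurog3 lay 0.042 above that floor. On replicates 6 and 9 Neurog3 lay 0.63 and 0.57 above the floor of the array. Earlier results had named 7 arrays as carrying RNA of other organs: these 3, intestine E20 replicate 9 and lung E20 replicates 1, 6 and 8. For lung E20 replicate 6 the liver and pancreas lists do not show it. Its liver mean was 6.51, against 8.33 and 8.38 on replicates 1 and 8, and its exocrine pancreas mean of 6.19 lay within the group range (6.04 to 6.46). Without these 7 arrays the rise in Neurog3 was 0.81 (SE 0.13). Since the 3 highest E16 values were among those left out, the larger rise follows from the omission and is no test. Neurog3 is also the endocrine switch of the pancreas, and the part of the pancreas RNA and of the raised dim end in its values was not tested.

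Neurod1, the helix-loop-helix factor downstream of Neurog3, ran from 5.87 to 6.41 at E16, with a median of 6.04. At E20 it ran from 6.13 to 7.15, with a median of 6.70. Of the E20 arrays, 7 lay above every E16 array. The rise was 0.54 (SE 0.11, limma adjusted p = 3.96e-05), from 6.07 ± 0.18 to 6.62 ± 0.35.

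The Neurod1 values of intestine E20 fell into separate ranges. Replicates 1 to 5 ran from 6.13 to 6.59 and replicates 6 to 10 from 6.80 to 7.15. The same arrays also differed in a property of the whole array, the upper quartile of log2 intensity, which was 9.32 to 9.34 in replicates 1 to 5 and 9.29 to 9.30 in replicates 6 to 10. With the first 5 alone the rise was 0.25 (adjusted p = 0.0540) and with the last 5 alone 0.83 (adjusted p = 4.72e-08). Whether the rise passed at an adjusted p under 0.05 thus depended on them. The split was not confined to endocrine genes. Of 15 lists of marker genes, 8 had means without overlap between the same arrays, all higher in replicates 6 to 10. They included skeletal muscle (6.43 to 6.63 and 6.71 to 6.92) and stomach and oesophagus (6.70 to 6.93 and 6.99 to 7.18). Lists of endocrine genes among the 8 were gut hormones (8.52 to 8.64 and 8.70 to 8.90), islet (7.95 to 8.17 and 8.25 to 8.45) and thyroid and neck endocrine (7.22 to 7.44 and 7.48 to 7.71). Neurog3 was not split, at 6.38 ± 0.15 and 6.44 ± 0.36 (n = 5 each), nor was Pax6, at 6.06 ± 0.17 and 6.15 ± 0.29. The Isl1 difference described below was -0.26 (adjusted p = 0.0663) with the last 5 alone. The labels give no batch for these arrays, and the part of array handling was not tested.

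**Figure D2:**
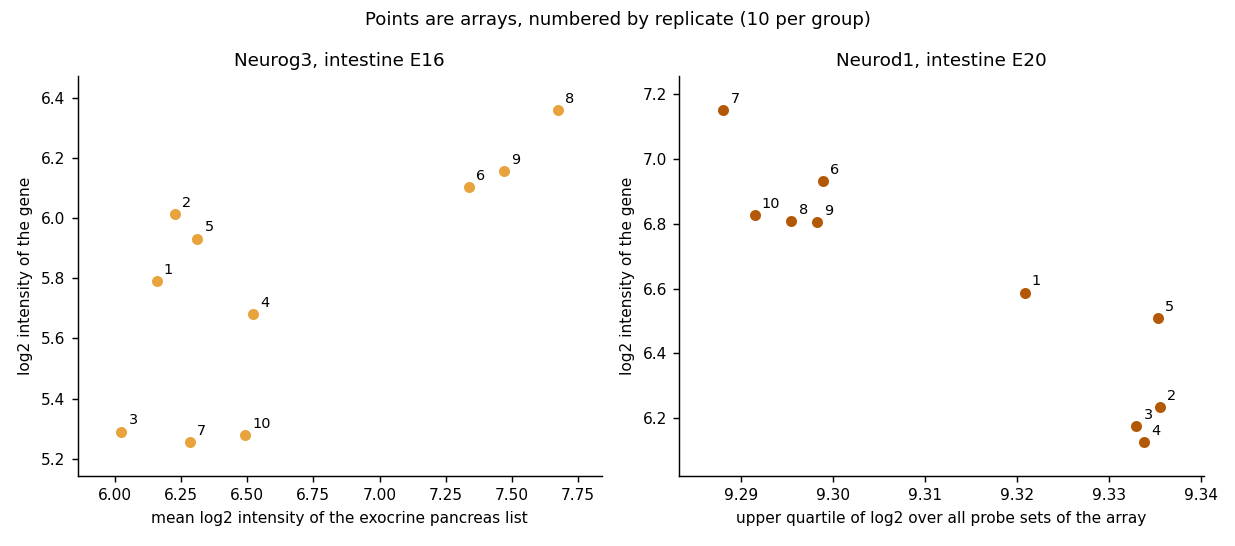
Left, log2 intensity of Neurog3 in intestine E16 against the mean log2 intensity of the exocrine pancreas list, and right, log2 intensity of Neurod1 in intestine E20 against the upper quartile of log2 intensity of the array, with 1 numbered point for each of 10 arrays. Replicates 6, 8 and 9 stand apart on the left, and replicates 6 to 10 stand above 6.80 on the right while replicates 1 to 5 stay at or below 6.59.

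Pax6, a paired homeodomain factor needed for several hormone-producing cells, ran from 5.04 to 6.19 at E16, with a median of 5.38. At E20 it ran from 5.73 to 6.50, with a median of 6.13. Without replicate 8 of E16, at 6.19, no other E16 array exceeded 5.53, below the lowest E20 array. The rise was 0.69 (SE 0.11, limma adjusted p = 3.25e-07), from 5.42 ± 0.31 to 6.11 ± 0.23. Measured against the dim end of its own array, Pax6 lay below the array's 10th percentile on 9 of 10 arrays at E16 and on 0 of 10 at E20.

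Isl1, a LIM homeodomain factor of endocrine cells and neurons, moved the other way on its brighter probe set, 1369681_at. It ran from 8.13 to 9.0 at E16, with a median of 8.59, and from 8.10 to 8.55 at E20, with a median of 8.35. The ranges overlapped on all but 1 E20 array, although all 10 E20 arrays lay below the E16 median. The fall was 0.28 (log2 difference -0.28, SE 0.096, limma adjusted p = 0.00912), from 8.62 ± 0.26 to 8.34 ± 0.13. The dimmer probe set, 1396895_at, had 5.68 ± 0.30 and 5.78 ± 0.36, a difference of 0.091 (adjusted p = 0.536). It lay near the floor, on average 0.016 and 0.21 above the 10th percentile of its own array at E16 and E20, and below it on 3 and 1 arrays, so it is no test of the difference on the brighter one. With both averaged the difference was -0.094 (adjusted p = 0.256). Transcripts of enteric neurons and glia, where Isl1 can also be made, were lower at E20 as well: 11 of 25 were called lower and 1 higher, against 6.26% and 8.79% of all genes. Their summed intensity was 22715 to 30364 at E16 and 9655 to 18445 at E20, with none at 0, and their part in the Isl1 difference was not tested.

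Pax4, a paired homeodomain repressor of early endocrine cells, ran from 6.05 to 6.91 at E16 (median 6.41) and from 6.15 to 6.77 at E20 (median 6.44). The groups overlapped throughout. The difference was 0.013 with a 95% interval of -0.17 to 0.20 (limma adjusted p = 0.908).

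Across the 5 genes in the intestine, limma called 0 of 5 at an adjusted p under 0.05 and 2-fold, against 15.1% of all genes in either direction. At an adjusted p alone 3 were higher and 1 lower, against 29.5% and 41.9% of all genes, and 4 of 5 had an unadjusted p under 0.05. Without the 7 arrays named above, 4 of 5 again passed at an adjusted p alone. The median difference of the 5 was 0.54, and that of all genes was -0.086. None of the 5 had groups that did not overlap, against 17.3% of all genes higher and 20.3% lower.

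In the lung, Neurog3 was lower at E20. It ran from 5.56 to 6.25 at E16 (median 6.01) and from 5.25 to 5.79 at E20 (median 5.51), and 6 E20 arrays lay below every E16 array. The fall was from 5.92 ± 0.26 to 5.49 ± 0.17, a log2 difference of -0.42 (SE 0.12, limma adjusted p = 0.00245). Pax4 ran from 5.82 to 6.63 at E16 (median 6.37) and from 5.95 to 6.19 at E20 (median 6.09), a log2 difference of -0.25 (SE 0.093, limma adjusted p = 0.0186). The E20 values of Pax4 lay within the E16 range, and all 10 were below its median.

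The other members gave no difference past the test in lung. Neurod1 went from 5.42 ± 0.27 to 5.30 ± 0.19, with a 95% interval of the difference from -0.34 to 0.11. Pax6 went from 5.24 ± 0.25 to 5.28 ± 0.18, with an interval from -0.19 to 0.25. Isl1 went from 8.14 ± 0.16 to 8.18 ± 0.29, with an interval from -0.16 to 0.23. Its dimmer probe set, near the floor, gave -0.23 (SE 0.12, limma adjusted p = 0.111). Isl1 is also a gene of the early heart, and lung E16 replicates 5 and 9 carried more cardiac muscle transcripts (mean log2 10.03 and 10.43, against 7.08 to 8.10 on the other 8). On these arrays Isl1 was 8.19 and 8.31, and on the other 8 it ran from 7.77 to 8.28, so replicate 9 was the highest of the group. The part of cardiac muscle RNA in the Isl1 values was not tested. For lung, limma called 0 of 5 at 2-fold, against 11.8% of all genes. At an adjusted p alone 0 were higher and 2 lower, against 33% and 33.7% of all genes, and 2 of 5 had an unadjusted p under 0.05. Without the 7 arrays named above, 2 of 5 again passed at an adjusted p alone. When lung E16 replicates 5 and 9 were left out too, 1 of 5 did, since Pax4 stood at -0.25 (adjusted p = 0.0530) and Neurog3 at -0.36 (adjusted p = 0.0154). The median difference was -0.12 for the 5 genes and -0.0064 for all genes.

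The age changes differed between the organs for 4 of the 5 genes at an adjusted p under 0.05, with 1 value above 0 and 3 below, against 35.3% and 30.9% of all genes. Neurog3 alone was called at 2-fold, against 8.48% of all genes lower by this contrast. Its change in lung minus its change in intestine was -1.05 (SE 0.17, limma adjusted p = 1.32e-06), close to the 2-fold line, and leaving out any of 4 intestine arrays took it below (range -1.11 to -0.99). For Neurod1 the value was -0.66 (SE 0.16, adjusted p = 3.55e-04) and for Pax6 -0.66 (SE 0.15, adjusted p = 2.23e-04). For Isl1 it was 0.32 (SE 0.14, adjusted p = 0.0379). It no longer passed with 11 of 40 single arrays left out, with quantile normalization (0.24, adjusted p = 0.101) or with both probe sets averaged (-0.00024). The same contrast on the dimmer Isl1 probe set, which lay near the floor, was -0.32 (SE 0.17, limma adjusted p = 0.115). For Pax4 it was -0.26 with an interval of -0.53 to 0.0060 (adjusted p = 0.0797). The comparison of organs at E20 shares its intestine E20 and lung E20 arrays with these contrasts and is given by its own values.

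**Figure D3:**
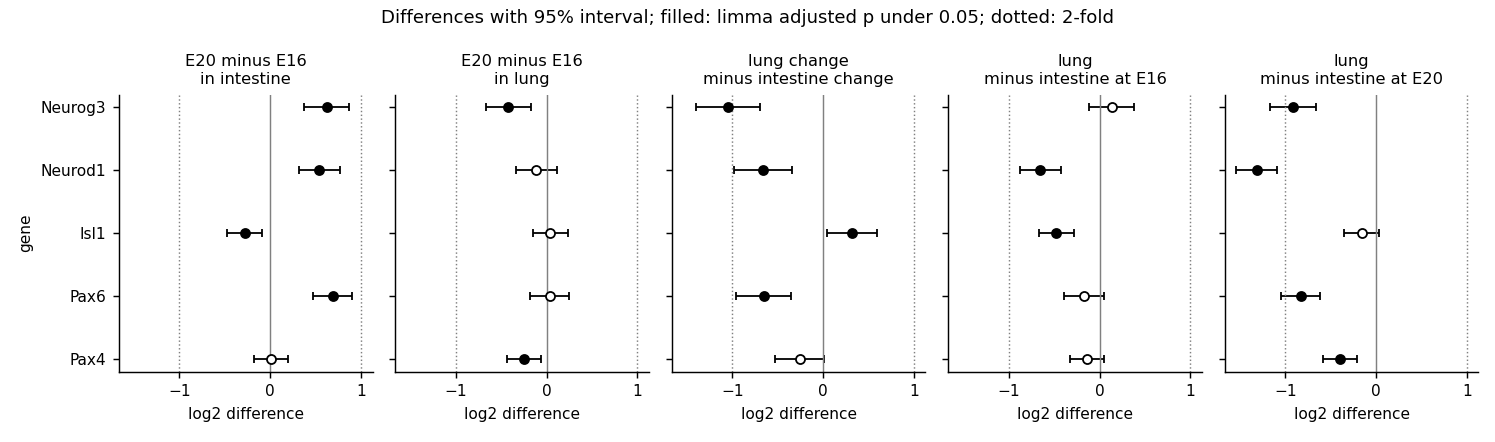
Log2 difference of each of 5 genes in the 5 comparisons, with 95% intervals from limma; filled points had an adjusted p under 0.05 and dotted lines mark 2-fold. Neurog3 lies at 0.62 in intestine and -0.42 in lung, and Neurod1 at E20 is the comparison of organs that lies farthest from 0, at -1.31.

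At E20, 3 of the 5 factors did not overlap between organs, with every lung array below every intestine array, against 18.6% of all genes lower by this rule. Neurod1 differed most, at 5.07 to 5.59 in lung (median 5.37) against the 6.13 to 7.15 of intestine. The difference of -1.31 (SE 0.11, limma adjusted p = 8.67e-14), or 2.48-fold, was the 1 call at 2-fold, against 8.21% of all genes lower. Neurod1 lay at the dim end of the lung arrays (mean of -0.078 relative to the array's 10th percentile, 5 of 10 arrays below it), so this fold of intensities is not an exact fold of transcript and may be an underestimate. With intestine represented by replicates 1 to 5 alone it was -1.02, and by replicates 6 to 10 alone -1.60.

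Neurog3 was 0.92 lower in lung at E20 (log2 difference -0.92, SE 0.12, limma adjusted p = 1.34e-08). Pax6 was likewise lower, at 4.90 to 5.48 in lung (median 5.30) against 5.73 to 6.50 in intestine, a log2 difference of -0.83 (SE 0.11, adjusted p = 5.82e-09). Pax4 was lower by a smaller amount, -0.39 (SE 0.093, adjusted p = 2.49e-04), with 8 of 10 lung arrays below every intestine array. Relative to the 10th percentile of its own array, Pax4 averaged 0.70 ± 0.11 in lung and 0.90 ± 0.17 in intestine. For Isl1 the brighter probe set gave -0.16 with an interval of -0.35 to 0.034 (adjusted p = 0.132). Without lung E20 replicate 4, which at 8.80 was the highest of its group, it gave -0.23 (adjusted p = 0.0188). The dimmer probe set, in lung below the 10th percentile of the array on 8 of 10 arrays, gave -0.58 (SE 0.12, adjusted p = 5.95e-05), from 5.78 ± 0.36 to 5.19 ± 0.21. At an adjusted p alone 4 of 5 were lower in lung, against 42.5% of all genes.

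At E16 the organs were closer. Neurod1 was lower in lung, at 5.05 to 5.92 (median 5.48) against 5.87 to 6.41 in intestine, with 9 of 10 lung arrays below every intestine array. The log2 difference was -0.65 (SE 0.11, limma adjusted p = 3.76e-06), and -0.30 (adjusted p = 0.0767) after quantile normalization, under which it did not pass. Isl1 was also lower in lung on its brighter probe set, at 7.77 to 8.31 against 8.13 to 9.0, a log2 difference of -0.48 (SE 0.096, adjusted p = 4.62e-05). The dimmer probe set, near the floor, gave -0.26 (SE 0.12, limma adjusted p = 0.0580) and did not pass. Pax6 (-0.17, adjusted p = 0.153) and Pax4 (-0.13, adjusted p = 0.203) did not pass, and both changed sign under quantile normalization.

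Neurog3 at E16 differed by 0.13 between lung and intestine, with an interval of -0.12 to 0.38 (limma adjusted p = 0.343). It was higher in lung without the 7 arrays (0.31, adjusted p = 0.0302), but did not pass when lung E16 replicates 5 and 9 were left out too (0.26, adjusted p = 0.0906). The 7 include the 3 intestine E16 arrays with the highest Neurog3, so leaving them out lowers the intestine mean whatever the cause. That shift is no support for a difference. Neurog3 was also higher in lung after quantile normalization (0.37, adjusted p = 0.00415). For the 5 genes limma called 0 of 5 at 2-fold at E16, against 5.13% of all genes (2.13% higher and 3% lower in lung). At an adjusted p alone 0 were higher and 2 lower, against 23.8% and 40.2%, and 2 had an unadjusted p under 0.05.

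Ordered by group mean, Neurod1 stepped from intestine E20 to intestine E16 to lung E16, each step larger than the larger SD of the neighbours, and the lung ages did not differ beyond it. For Pax6 the step from intestine E20 to intestine E16 exceeded the spread, and the 3 lower groups did not differ beyond it. For Neurog3 the step from intestine E20 to lung E16 exceeded it, and lung E16, intestine E16 and lung E20 followed without a step beyond the spread. For the brighter Isl1 probe set the first step, from intestine E16 to intestine E20, exceeded it, and for Pax4 the last step did, from lung E16 to lung E20. On the dimmer Isl1 probe set intestine E20 was highest, and only the last step, from lung E16 to lung E20, exceeded the spread.

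Except for the bright Isl1 probe set, the members gave weak signal. Their group means ranged from 5.19 to 6.62, and the mean 10th percentile of log2 over all probe sets of an array was 5.38 to 5.67 by group. This floor was higher in intestine (5.67 at E16 and 5.57 at E20) than in lung (5.44 and 5.38). That is the direction of the lower lung values of dim members, and its part in them was not tested. In lung, Neurod1 lay below its array's 10th percentile on 4 of 10 arrays at E16 and 5 of 10 at E20, and Pax6 on 7 and 8. Neurog3 lay below it on 3 of 10 arrays in intestine E16 and on 3 of 10 in lung E20. Probe sets differ in affinity, so this describes signal and not the amount of transcript. With 50 intensity units added before log2, which damps differences of dim probe sets, Neurod1 at E20 was -0.73 between organs and no longer called.

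Neurod1, the 1 member called between groups, had a likeness in 3 genes by the root mean square of the difference between centred group means over the 4 groups. They were Tacr2, a neurokinin receptor, at 0.025, Caly at 0.036 and Rell2 at 0.043. Tacr2 had means of 7.66 and 8.22 in intestine at E16 and E20 and of 7.05 and 6.86 in lung.

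Around these factors, several products of endocrine cells had larger log2 differences with age. Of all genes, 8.79% were called higher and 6.26% lower in intestine, and 7.15% higher and 4.63% lower in lung. Of 14 measured gut hormone genes, 6 were called higher at E20 in intestine and 0 lower, with a median difference of 0.84. Secretin (Sct) rose from 6.14 ± 0.32 to 10.99 ± 0.34, and glucagon (Gcg), the source of gut glucagon-like peptides, from 5.53 ± 0.40 to 9.82 ± 0.23. Neurotensin (Nts) rose by 3.35 and somatostatin (Sst) by 3.01 on the log2 scale, with Gip (2.06) and Pyy (1.09) also called. In lung 0 of 14 were called by limma, 4 had an unadjusted p under 0.05 and the median was -0.061.

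Of 21 genes for secretory granules and hormone processing, 2 were called higher in intestine and 0 lower, with a median of -0.18. At an adjusted p alone 6 were higher and 10 lower, so the 2 calls run against most of the list's changes. The 2 called were the granins Chgb, from 6.71 ± 0.47 to 9.91 ± 0.18, and Chga, from 7.44 ± 0.19 to 8.65 ± 0.16. In lung 1 of 21 was called, Cpe, a prohormone carboxypeptidase, which rose by 1.33. Chgb stayed at 4.29 ± 0.35 and 3.89 ± 0.15 there. The insulin genes were not called at 2-fold in intestine, where Ins1 differed by 0.56 and Ins2 by -0.51 between the ages.

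Of 17 further transcription factors of endocrine cells, 0 were called higher and 1 lower in intestine, with a median of -0.036. The 1 call was Etv1, at -1.59. At an adjusted p alone 3 of the 17 were higher and 6 lower. Both factors given next were among the 3 higher and so run against most of the list's changes. Nkx2-2, a homeodomain factor of endocrine cells, was 4.66 ± 0.66 and 5.16 ± 0.20 (difference 0.50, adjusted p = 0.0132). Pdx1, a factor of duodenum and pancreas, was 6.45 ± 0.26 and 7.23 ± 0.24, a difference of 0.78. In lung 0 of 17 were called by limma, and 10 had an unadjusted p under 0.05. Rfx6 is not analysed here.

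Of 28 genes of the Notch pathway and of the choice between secretory and absorptive fates, 3 were called higher in intestine and 2 lower. Spdef, a factor of goblet and Paneth cells, rose by 3.05, Notch4 by 1.75 and Numb, an inhibitor of Notch, by 1.18. Hey2, a Notch target gene, had a difference of -2.85 and Id3, an inhibitor of helix-loop-helix factors, of -1.37. Hes1, the Notch target that represses Neurog3, was 10.99 ± 0.12 and 11.26 ± 0.20 in intestine (difference 0.27, adjusted p = 0.00260). In lung 3 of 28 were called higher and 0 lower: Spdef (1.22), Hey1 (1.09) and Id1 (1.01). The median of the list was -0.071 in intestine and 0.080 in lung. Atoh1 is not analysed here.

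**Figure D4:**
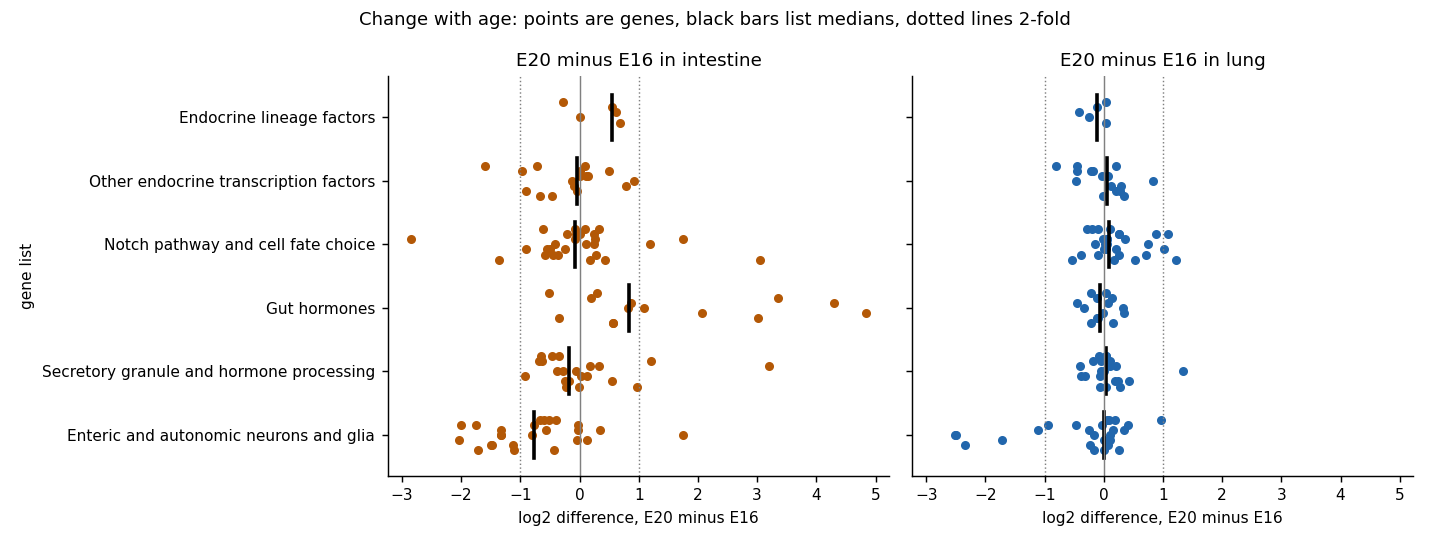
Log2 difference between E20 and E16 in intestine (left) and lung (right), with 1 point for each gene of 6 lists, black bars for list medians and dotted lines at 2-fold. The hormone list reaches 4.84 in intestine while the 5 endocrine lineage factors stay between -0.28 and 0.69.

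In the lung, 15 genes of pulmonary neuroendocrine cells gave 0 called higher and 3 lower, with a median of -0.034. These were Cplx2 (-1.85), Ncam1 (-1.70) and Uchl1 (-1.12), which neurons make as well. At an adjusted p alone 2 of the 15 were higher and 5 lower, against 33% and 33.7% of all genes. Of 25 genes of neurons and glia, 5 were called lower in lung and 0 higher, among them Nefm (-2.51) and Elavl4 (-2.50). At an adjusted p alone 5 were higher and 7 lower, and the median of the 25 was 0.0048. The summed intensity of that list was 5511 to 6957 at E16 and 4652 to 5559 at E20, with none at 0, and its part in the lower Neurog3 and Pax4 values was not tested. The labelled organs matched their markers, Cdx2 reaching 7.81 and 12.12 in intestine against 6.61 and 6.57 in lung, and Nkx2-1 9.71 and 10.67 in lung against 6.68 and 7.26 in intestine.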

How the data were processed

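RNA of 40 samples was measured on Affymetrix rat arrays, 10 for each organ and age. The authors deposited 1 intensity per probe set on a linear scale (6.65 to 39901); per the submitters' processing notes the tool was RMA, a background correction with normalization across arrays and a summary of the probes, with no version given. The planned test assumed log2 values, so log2 of the deposited intensities was taken here. RMA pulls dim probe sets towards a common floor, which shrinks differences there.

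Of 31099 probe sets, 20826 named 1 gene and were not controls, 436 named several genes and 9831 none. The probe set with the highest mean stood for its gene (14217 genes), with every member probe set also tested in a fit of all 31042 probe sets. limma 3.58.1 in R 4.3.3 fitted 4 group means and 5 two-sided contrasts with Benjamini-Hochberg adjustment, checked on simulated data. Intervals are 95%. The threshold without a fold minimum, the omission of single arrays, the split of intestine E20 and the omission of 2 lung E16 arrays besides 7 others were added after seeing the data.

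The members, gene lists and named genes were chosen with earlier results of these data known. Named were all members, up to 4 called genes of a list with the largest change, and a short set given by name. Groups follow the titles. The design text speaks of 10 embryos at each age, and whether same-numbered intestine and lung samples came from 1 embryo is not settled. As their correlation was not over 0.1 in every case (7 of 10 at E16, 4 of 10 at E20), the numbers were not treated as pairs. Alternatives were other normalizations, probe set rules, filters, variance models, array weights and blocks. The array number limits the precision. Protein comparisons are not analysed here. Promoter sequences are from RefSeq (GRCr8), matched by symbol for 5 of 6 members; no build is named for the arrays' annotation here.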

Additional observations from a re-analysis of the deposited data

Results flagged for a closer look

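Pax6 in intestine E16 replicate 8 was 6.19, apart from the next array of its group at 5.53. It was the 1 array so far from its group among 24 groups of 10 tested, and chance marks about 1 in 20. The same array had the highest 10th percentile of log2 of its group (6.32, next 5.77). Relative to that percentile its Pax6 stood at -0.13, against a group mean of -0.25 ± 0.16. Its exocrine pancreas mean was the highest (7.67), but so were its means of the islet, cardiac muscle and lung epithelium lists. By summed intensity of the pancreas list, replicate 9 was highest (8582). The part of the raised dim end and of pancreas RNA was not tested. Without any 1 array the intestine change in Pax6 stayed between 0.64 and 0.77.

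The change with age differed between organs, by limma's test of the difference, for Neurog3 (-1.05, lung change minus intestine change), Neurod1 (-0.66), Pax6 (-0.66) and Isl1 (0.32). The Isl1 value is of the brighter probe set. The dimmer one, near the floor, gave -0.32 (limma adjusted p = 0.115).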

How the results depend on the processing

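The directions of the Neurog3, Neurod1 and Pax6 rises in intestine and of the Neurog3 and Pax4 falls in lung held under every alternative that kept these genes. Tested against a 2-fold change itself, the number of the 5 members passing was 0 in intestine, 0 in lung, 0 for the difference between organs in their age change, 0 at E16 and 1 at E20. Restricted to bright genes, of the members Isl1 alone remained in the fit, and at an adjusted p alone the numbers were 1, 0, 1, 1 and 0 in that order. The 2-fold count for the difference between organs (1, Neurog3) became 0 with 50 intensity units added, with bright genes only and against 2-fold, and ranged from 0 to 1 with single arrays left out, being 0 without intestine E16 replicate 3, 7 or 10 or intestine E20 replicate 8. The 2-fold count at E20 (1, Neurod1) became 0 with 50 units added and with bright genes only.

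Without the 7 arrays and lung E16 replicates 5 and 9, the number passing at an adjusted p alone was 4 in intestine, 1 in lung in place of 2 (Pax4 lost), 4 for the difference between organs, 2 at E16 and 4 at E20.

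Reversed signs occurred among differences that had not passed the test, and for Isl1 between organs. Pax4 in intestine was -0.013 (quantile), -0.011 (arrays centred on their median), -0.066 (intestine E20 replicates 1 to 5) and -0.033 to 0.063 with single arrays left out. Isl1 in lung was -0.084 (quantile), -0.022 (centred), -0.094 (probe sets averaged) and -0.031 to 0.089. Pax6 in lung was -0.027 (centred), -0.042 (without the 7 arrays), -0.0051 (without these and lung E16 replicates 5 and 9) and -0.025 to 0.074. Isl1 between organs was -0.00024 (averaged), and at E16 Pax6 was 0.11 and Pax4 0.080 (quantile). The cause was not tested.

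With the replicate number as a block, Pax4 between organs was -0.26 (adjusted p = 0.0405) and passed, giving 5 members in place of 4, and no other member call changed. With the number as a block within an age, which alone could stand for an embryo, 4 passed and Pax4 did not (adjusted p = 0.0575). It passed with quantile normalization (-0.29, adjusted p = 0.0298), centring (-0.29, adjusted p = 0.0467) and array weights (-0.36, adjusted p = 0.0154). Same-numbered samples correlated over 0.1 in 7 of 10 cases at E16 and 4 of 10 at E20, and 6 of 10 intestine samples at E16 and 1 of 10 at E20 matched lung of their own number best. Weak signal limits what can be read from all probe sets but the bright one of Isl1.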
